A study of Homo sapiens with 12 samples.

Results

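The sites described here are the FOXA1 binding sites of the 8q24 region around MYC, in hg19 coordinates chr8:127900000-129200000. A site belongs to the region when the centre of at least 1 ChIP-seq peak lies inside those bounds, and peaks of different libraries that share at least 1 base were merged into 1 site. The 12 peak lists of the series gave 178794 merged sites, of which 139 fell in the region. Of these, 84 lay upstream of MYC (128748315 to 128753680), 1 overlapped the gene and 54 lay downstream.

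FOXA1 is a forkhead pioneer factor, a protein that binds its motif in compacted chromatin and opens it for other factors, among them the androgen receptor in luminal prostate cells. MYC encodes a transcription factor that drives growth and proliferation. It lies beside a long stretch of 8q24 that is poor in protein-coding genes, holds inherited risk loci for prostate and other cancers, and contains enhancers that can contact the MYC promoter from far away. PVT1, the long non-coding RNA gene next downstream of MYC, is often gained together with it in tumours.

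In RefSeq's gene order (GRCh38, used here for names only), the non-coding genes PCAT1, PCAT2, PRNCR1, CASC19, CCAT1, CASC21, CASC8, CCAT2 and CASC11 and the retrogene POU5F1B precede MYC. PVT1 and the microRNA genes MIR1204, MIR1205, MIR1206, MIR1207 and MIR1208 follow it. Which of the sites lie inside PVT1 or another gene was not analysed here, because no annotation in the build of the peak lists was used. Sites are named below by the distance of their centre from the start of MYC.

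All libraries came from LNCaP, an androgen-responsive prostate cancer line, and the series examined FOXA1 occupancy when FOXA1 was replaced or when cells were treated with inhibitors. In the first set, cells stably carried the empty shRNA vector pGIPZ, an shRNA against FOXA1 (shFoxA1), shFoxA1 with wild-type FOXA1 (shFoxA1+WT) or shFoxA1 with the mutant K295A (shFoxA1+K295A). HA ChIP was done 5 days after infection, with 1 library per condition, and the treatment protocol describes the added proteins as HA-tagged. In the second set, cells received DMSO, 1 uM EPZ-6438 (an inhibitor of the Polycomb methyltransferase EZH2), 3 uM P5091 (which inhibits USP7, a ubiquitin-removing protease) or both agents (the combination) for 7 days. FOXA1 ChIP followed, with 2 libraries per group, called replicate 1 and replicate 2.

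The libraries held 11640056 to 22589685 tags. Values are normalized tag counts, that is tags in a peak per 10000000 tags of the library. The FOXA1 lists held 68504 to 84423 peaks, except combination replicate 1 with 30811, and that library also had the lowest tag counts. Peaks were 279 bases wide in that library, 356 to 365 in the other first replicates and 274 to 296 in the second replicates. Tags were thus counted over different widths, and the effect of this on the values was not tested. Because combination replicate 1 lay low, the main fits used values centred on each library's median over the sites called in all 8 FOXA1 libraries. Uncentred fits, other scalings and edgeR served as alternatives. Tag counts are printed as deposited. Centring can change the order of the libraries, above all for combination replicate 1, and centred values are given at some sites only. A library without a peak at a site has no value there, which is not a value of 0.

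FOXA1 sites were dense around MYC and many were called in every library. An antibody to FOXA1 gave a peak at 120 of the 139 sites, or 92.3 per Mb, against 48.2 per Mb of chromosome 8 and 46.7 per Mb over all chromosomes. Of the 120 sites, 32 (26.7%) were called in all 8 FOXA1 libraries, compared with 17.2% of the 140823 FOXA1 sites in the whole series and 17.9% on chromosome 8. Without combination replicate 1, 40 of 119 sites (33.6%) had a peak in all 7 remaining libraries, beside 26.9% over the series, where that library alone took the count from 37763 to 24261. Another 54 were called in 2 to 7 libraries and 34 (28.3%) in 1 library, the last close to the 26.4% seen over all sites. The remaining 19 sites had only HA peaks. At the borders, the first FOXA1 site inside (chr8:127908713-127909199) had a mean tag count of 12.6 and the last site outside before it (chr8:127889696-127890092) 14.9. The last inside (chr8:129189093-129189464) had 34.0, and the next one beyond (chr8:129209174-129210183) 15.2. No copy-number correction was applied to any of these values, and tag counts of a genomic segment rise with its copy number. The peak caller's fold over input had a median per FOXA1 library of 17.7 to 27.1 at the region's peaks, beside 16.1 to 24.6 at all peaks. It was higher in the region in each of these libraries except DMSO replicate 1 (18.2 against 19.3). The input level implied by tag count over this fold was compared too, as a median over the region's peaks and over all peaks. The former was higher in DMSO replicate 1 (1.98 against 1.32), EPZ-6438 replicate 2 (1.25 against 0.629) and combination replicate 1 (1.28 against 0.643). In the other FOXA1 libraries both medians were about equal. The part of copy number in the density and tag counts was not tested.

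Sites called in every library occurred on both sides of MYC, at 19 upstream and 13 downstream positions. This was 2.24 per 100 kb upstream and 2.91 per 100 kb downstream, since the upstream part of the region is longer (848 kb against 446 kb). All FOXA1 sites together had densities of 8.25 and 11.0 per 100 kb. The median of the mean tag counts of sites called in all 8 was 39.2 upstream and 36.6 downstream. The share of a FOXA1 library's regional tags that lay upstream was 54.3% to 61.8%. The log2 ratio of median upstream to median downstream tag counts averaged -0.01 ± 0.22 (SD, n = 8, treatments pooled). It was 0.04 and 0.18 under DMSO and 0.13 and 0.06 under P5091. Under EPZ-6438 it was -0.21 and -0.27, and under both agents -0.30 and 0.29. At the sites called in all 8, the ratio was negative in every replicate 1 library (-0.27 to -0.06). There it was positive in every replicate 2 library (0.19 to 0.43). Neither side was thus the stronger one in every library. Whether the ratio differed by treatment or replicate number was not tested.

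**Figure D1:**
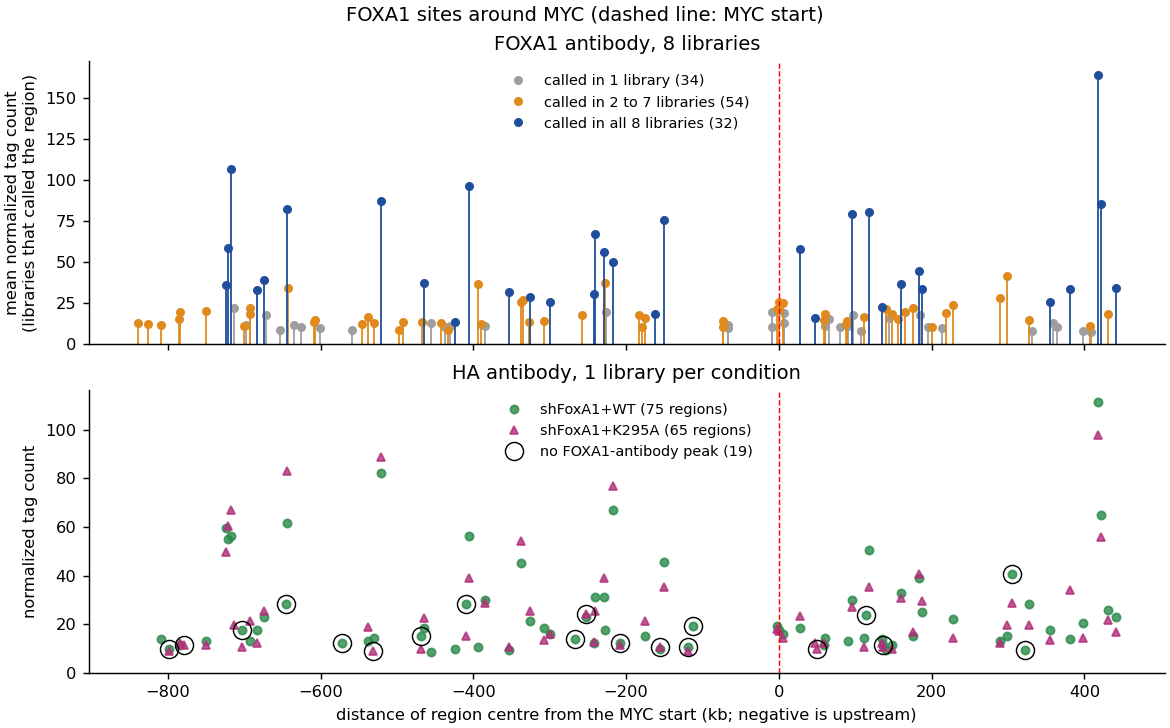
Merged sites along the region, placed by distance from the MYC start in kb (negative is upstream). The upper panel gives the mean normalized tag count over the FOXA1 libraries that called a site, coloured by how many did, and the lower panel gives the HA libraries, where 19 circled sites had no FOXA1-antibody peak. The tallest site lies 417 kb downstream, and no site called in all 8 libraries lies in the last 100 kb before MYC.

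The strongest site of the region lay 417 kb downstream of the MYC start, at chr8:129165314-129165692. Its normalized tag counts were 266.2 and 144.6 in the DMSO libraries, 192.1 and 127.7 under EPZ-6438, 233.5 and 150.7 under P5091, and 53.8 and 144.4 under both agents. Replicate 1 was above replicate 2 in each group but the combination, and the treated values overlapped those of DMSO. With a mean of 164, the site ranked 184th in mean tag count among the 24261 sites of the whole series called in all 8 libraries.

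A second strong site lay 421 kb downstream, at chr8:129169538-129169920, close to the first. Its tag counts were 81.2 and 68.5 under DMSO, 75.7 and 109.8 under EPZ-6438, 96.5 and 102.9 under P5091, and 42.5 and 106.5 under both agents. As deposited, every treated library of replicate 2 lay above DMSO and only P5091 of replicate 1 did. On centred log2 values every treated library lay above DMSO in both, with 1.00 for DMSO, 1.09 for EPZ-6438, 1.30 for P5091 and 1.44 for the combination in replicate 1. The centred difference of the combination from DMSO was 0.53, with an adjusted p of 0.441 (limma), and this was not called.

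Upstream, the highest mean tag count was 717 kb from MYC, at chr8:128030705-128031079. There the DMSO libraries gave 145.5 and 115.5, EPZ-6438 93.0 and 98.4, P5091 128.5 and 113.8, and the combination 53.8 and 102.6. After centring, combination replicate 1 (1.78) lay between the DMSO libraries (1.83 and 1.65). The site stood in a group of neighbouring sites 724, 721 and 717 kb upstream, each called in all 8 libraries. The site 406 kb upstream (chr8:128342511-128342908) gave 158.7 and 95.2 under DMSO, 95.6 and 78.9 under EPZ-6438, 138.9 and 83.5 under P5091, and 41.9 and 76.5 under both agents. The site 521 kb upstream (chr8:128227449-128227848) ranged from 30.0 in combination replicate 1 to 114.4 in DMSO replicate 2. On the centred log2 scale the SD over the 8 libraries was 0.18 at the 717 kb site, 0.24 at the 521 kb site, 0.34 at the 406 kb site and 0.39 at the 721 kb site.

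The sites called in all 8 libraries were unevenly spaced. Their 31 gaps ran from 0.578 to 176.893 kb with a median of 24.9 kb, and 5 gaps were under 5 kb. The longest gap spanned MYC itself, from the site 150 kb upstream (chr8:128598337-128598713) to the site 27.6 kb downstream (chr8:128775607-128776163). Inside it lay 11 FOXA1 sites that were called in some libraries only, 6 of them in a single one. The next longest gap, 167 kb, lay downstream of MYC. Without combination replicate 1 the gap over MYC was as long, while the next longest was 123 kb and lay upstream.

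Both borders of the MYC gap were strong. At the site 150 kb upstream the tag counts were 109.0 and 74.9 under DMSO, 81.0 and 54.5 under EPZ-6438, 112.9 and 75.7 under P5091, and 29.4 and 66.3 under both agents. At the site 27.6 kb downstream they were 81.9 and 52.8 under DMSO, 54.0 and 69.1 under EPZ-6438, 67.8 and 61.7 under P5091, and 28.8 and 46.6 under both agents. At the first of these sites both EPZ-6438 values lay below the DMSO value of the same replicate number, and at the second only the value of replicate 1 did. After centring, combination replicate 1 lay between the DMSO libraries at the second site (0.90, against 1.01 and 0.54). Farther downstream, the sites at 95.7 kb (chr8:128843863-128844254) and 118 kb (chr8:128866214-128866607) had mean tag counts of 79.2 and 80.6.

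The borders of the gap were picked as called in all 8 libraries and the sites inside it were not, which favours lower values inside. At MYC itself FOXA1 peaks were lower than at these borders. The mean over the libraries with a peak was 25.7 at the gene's start, beside 75.5 and 57.8 at the borders. Even so, the site at the start exceeded the median of all peaks in each library that called it (33.6 against 19.7 in DMSO replicate 1), except combination replicate 2 (14.2 against 16.6). The site covering the gene's start (chr8:128747908-128748463) was called in 7 of 8 FOXA1 libraries, with 33.6 in DMSO replicate 1 and no peak in DMSO replicate 2. EPZ-6438 gave 30.5 and 28.5, P5091 32.6 and 23, and the combination 17.5 and 14.2. As deposited, both combination values were the lowest, but after centring only that of replicate 2 was (-1.30), and replicate 1 was the highest (0.21, against -0.68 to -0.19 in the other groups). It was not among the sites tested for treatment effects, because a DMSO library had no peak there. Tag counts with tagged WT and K295A were alike, at 17.6 and 17.3.

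A site 1.98 kb upstream of the gene (chr8:128746118-128746543) was called with EPZ-6438 (19.9 and 17.9), in P5091 replicate 1 (25.4) and with tagged WT (19.1) and K295A (18.1). It had no peak with DMSO or with the combination. Just beyond the end of the gene, a site 5.68 kb from its start (chr8:128753785-128754208) was called in 6 libraries, with 32.2 and 27.9 under DMSO. Here EPZ-6438 replicate 2 gave 26.8 and P5091 37.8 and 12.7, while combination replicate 2 gave 12.6. The other 4 sites within 10 kb of MYC were each called in 1 FOXA1 library, at 10.3 to 19.6. A missing peak means only that a criterion of the peak caller was not met.

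Sites called in 7 libraries showed how far 1 library set these counts. The region had 10 of them, and at 8 the missing library was combination replicate 1. Over the whole series that library was the missing one at 83.4% of such sites.

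**Figure D2:**
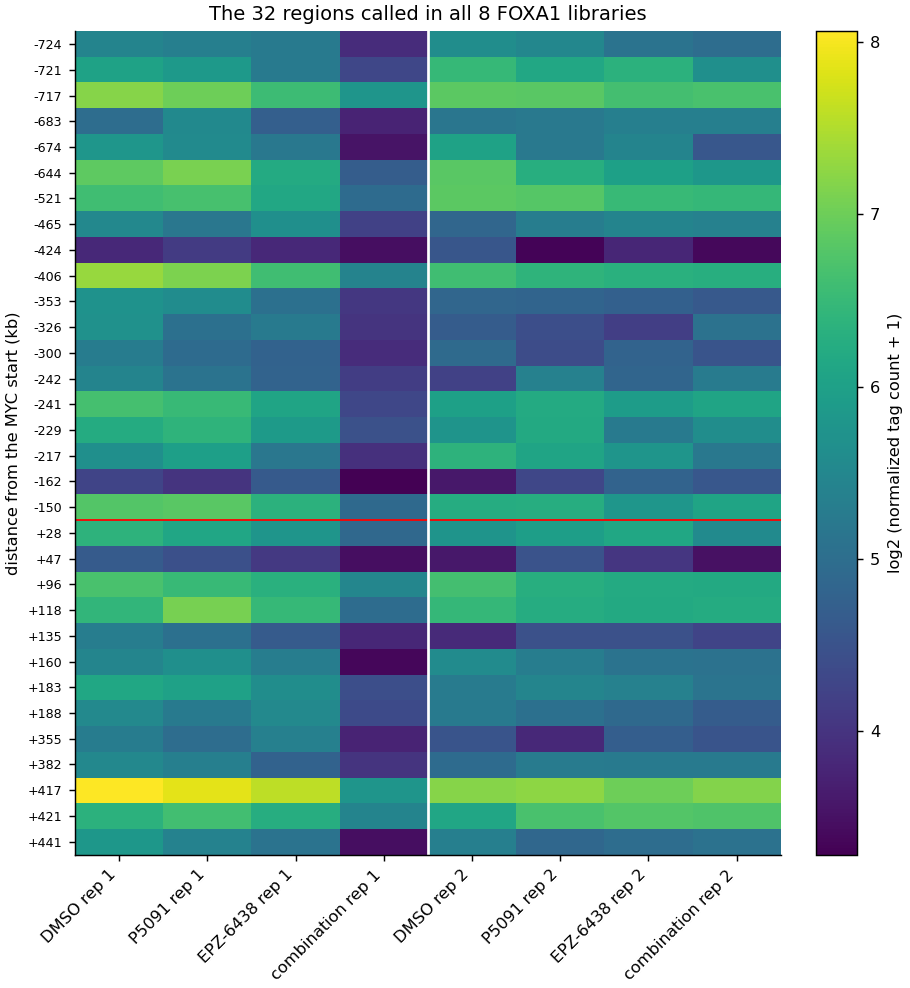
Normalized tag counts, as log2 (value + 1), of the 32 sites called in all 8 FOXA1 libraries. Rows are sites in genomic order by distance from the MYC start in kb (the red line marks MYC), columns are libraries with replicate 1 left of the white line. Combination replicate 1 is the darkest column, and the row 417 kb downstream the brightest.

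Treatment effects were tested at the 32 sites called in all 8 libraries, which were part of the 24261 sites fitted together. Before any test, the median tag count of the 32 sites was 53.4 and 47.6 under DMSO, 39.4 and 40.3 under EPZ-6438, 48.6 and 41.8 under P5091, and 17.2 and 37.5 under both agents. Both EPZ-6438 values were below both DMSO values, and P5091 replicate 1 lay between the DMSO libraries. Relative to the median of all 24261 sites in the same library, the 32 sites were higher in every library. The log2 excess was 0.40 and 0.39 under DMSO, 0.17 and 0.07 under EPZ-6438, 0.33 and 0.15 under P5091, and 0.19 and 0.05 under both agents. Every treated library had a smaller excess than both DMSO libraries.

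Without the replicate number in the fit, limma called none of the 32 sites for EPZ-6438 against DMSO, where 0.0% of all sites were called, nor for P5091 or the combination, also with 0.0% called. The interaction of the agents and the effect of P5091 over all libraries gave no calls here and 0.0% over all sites. Libraries with EPZ-6438 (alone or in combination) against those without gave no call here either, with 0.157% called overall (0.0948% higher and 0.0618% lower). EdgeR without the replicate number also called none of the 32 in any of the 6 comparisons. Over all sites it called 36 for libraries with EPZ-6438 against those without, and none in the other comparisons. At an unadjusted p under 0.05, limma's counts for the 32 sites were 2 for EPZ-6438 (6.58% of all sites), 0 for P5091 (0.639%), 3 for the combination (11.4%), 0 for the interaction (1.03%), 5 for all with EPZ-6438 (13.9%) and 1 for all with P5091 (1.3%).

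Most fitted differences for EPZ-6438 were negative in the region. Against DMSO they were negative at 25 of 32 sites, with a median of -0.28 on the log2 scale, while 52.9% of all sites were negative, with a median of -0.03. Single libraries moved this, to 19 sites and -0.14 without DMSO replicate 1 and to 19 sites and -0.12 without EPZ-6438 replicate 2. Libraries with EPZ-6438 against those without gave negative differences again at 25 sites, with a median of -0.21, and 51.5% over all sites. The median was -0.08 without P5091 replicate 1 and -0.12 without combination replicate 2. For the combination against DMSO, 23 sites were negative, with a median of -0.21, beside 50.9% of all sites. Without combination replicate 2 this became 16 of 33 sites with a median of 0.01, and the median was -0.13 without DMSO replicate 1, -0.33 without DMSO replicate 2 and -0.37 without combination replicate 1. For P5091 17 sites were negative, with a median of -0.03, beside 53.2% of all sites, and the median ranged from -0.18 to 0.11 when single libraries were left out. These comparisons share the DMSO libraries, and the 32 sites share their libraries, so the counts are a description and carry no test. Typical 95% intervals for a single site reached 0.68 to either side for 2 against 2 libraries and 0.48 for 4 against 4. A change of the size of these medians was therefore not detectable at single sites.

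The replicate numbers of the titles were then taken to pair the libraries. With the replicate number in the fit, limma called 2 sites of the region in each of 2 comparisons, all of them lower. For the combination against DMSO this was 2 of 32 sites, beside 4.22% of all sites called in either direction, 1.8% called higher and 2.42% called lower. For libraries with EPZ-6438 against those without it was again 2 of 32 sites, beside 7.56% in either direction, 3.5% higher and 4.06% lower. Such counts are near the share called over all sites. No site was called for EPZ-6438 alone (0.688% of all sites, 0.322% higher and 0.367% lower), and at an unadjusted p under 0.05 limma gave 3 of 32 there (13.6% of all sites). With edgeR and the replicate number, none was called for EPZ-6438 alone either, beside 393 of all 24261 sites. P5091 and the interaction gave 0.0% over all sites in this fit and no calls here.

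The site 644 kb upstream (chr8:128103978-128104354), among the 5 strongest upstream, was called in both comparisons. Its tag counts were 116.3 and 113.2 under DMSO, 136.3 and 76.9 under P5091, 73.0 and 63.4 under EPZ-6438, and 25 and 55.2 under both agents. Within each replicate number both libraries with EPZ-6438 were below both without it, also after centring. Across numbers the groups overlapped after centring, with 1.04 for EPZ-6438 replicate 1 and 1.02 for P5091 replicate 2. The log2 difference after centring was -0.73 ± 0.16 (SE), with an adjusted p of 0.00298 (limma, replicate number in the fit) and 0.124 without it. For the combination against DMSO it was -0.92 ± 0.23 (SE), with adjusted p-values of 0.0139 and 0.267 in the same fits. When single libraries were left out of the fit with replicate numbers, the first call was kept in 6 of 8 fits and lost without P5091 replicate 1 or DMSO replicate 2, with adjusted p-values of 0.00134 to 0.159. The second was also kept in 6 of 8 and lost without combination replicate 1 or DMSO replicate 2 (0.0106 to 0.407).

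The site 674 kb upstream (chr8:128074591-128075034) was called for the combination. Its tag counts were 54.8 and 64.4 under DMSO, 46.3 and 36.3 under P5091, 35.9 and 42.3 under EPZ-6438, and 10.6 and 22.9 under both agents. Both combination values lay below every other library, and the single agents lay between them and DMSO, also after centring. The log2 difference from DMSO was -1.18 ± 0.28 (SE), with an adjusted p of 0.00995 (limma, replicate number in the fit) and 0.218 without it. The call was lost only without DMSO replicate 2, when the adjusted p was 0.317. The interaction of the agents at this site was -0.12, with an adjusted p of 0.999 (limma, replicate number in the fit).

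The site 217 kb upstream (chr8:128531382-128531928) was called for libraries with EPZ-6438 against those without. The values were 49.7 and 81.9 under DMSO, 62.0 and 66.6 under P5091, 35.4 and 53.7 under EPZ-6438, and 14.4 and 35.5 under both agents. EPZ-6438 replicate 2 was above DMSO replicate 1, so the groups overlapped across replicate numbers but not within them. The log2 difference was -0.63 ± 0.19 (SE), with an adjusted p of 0.0252 (limma, replicate number in the fit) and 0.221 without it. This call was kept in 3 of 8 fits that left out a library and lost without either EPZ-6438 library, P5091 replicate 1, DMSO replicate 2 or combination replicate 2, with adjusted p-values up to 0.272.

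**Figure D3:**
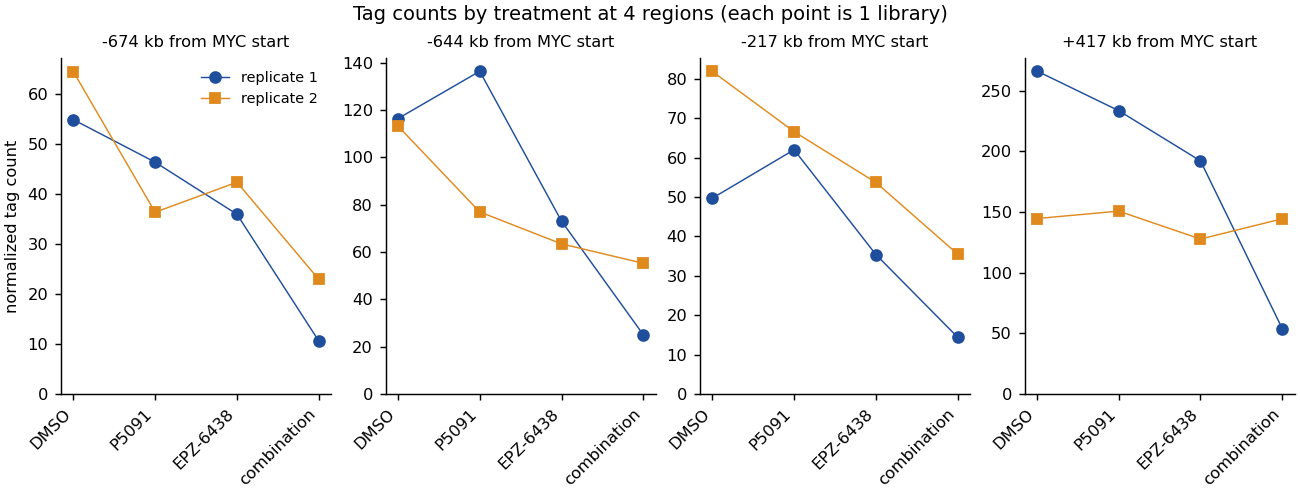
Normalized tag counts at the sites 674, 644 and 217 kb upstream and 417 kb downstream of the MYC start, with 1 point per FOXA1 library and lines joining the libraries of a replicate number. At the 3 upstream sites both combination values lie below both DMSO values, while 417 kb downstream combination replicate 2 (144.4) lies beside DMSO replicate 2 (144.6).

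Libraries with and without EPZ-6438 could also be compared by whether their centred values overlapped within each replicate number. They did not overlap, with EPZ-6438 lower, at 8 of 32 sites (25%), beside 9.92% of all sites. They did not overlap, with EPZ-6438 higher, at 2 of 32 (6.25%), beside 8.75% of all. The lower sites included the 644, 521, 406, 217 and 150 kb upstream sites and the one 417 kb downstream. At the last of these the margin in replicate 2 was very small, with 1.963 for the combination against 1.976 for DMSO. The smallest p in the other direction was at a weak site 162 kb upstream (chr8:128585729-128586195), with 18.3 and 11.0 for DMSO, 23.9 and 26.8 for EPZ-6438, 15 and 18.8 for P5091, and 8.75 and 22.9 for the combination. After centring, combination replicate 1 (-0.71) lay above DMSO replicate 1 (-1.09) and DMSO replicate 2 (-1.62). The site's difference of 0.65 had an adjusted p of 0.278 (limma) and 0.107 with the replicate number, so it was not called.

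**Figure D4:**
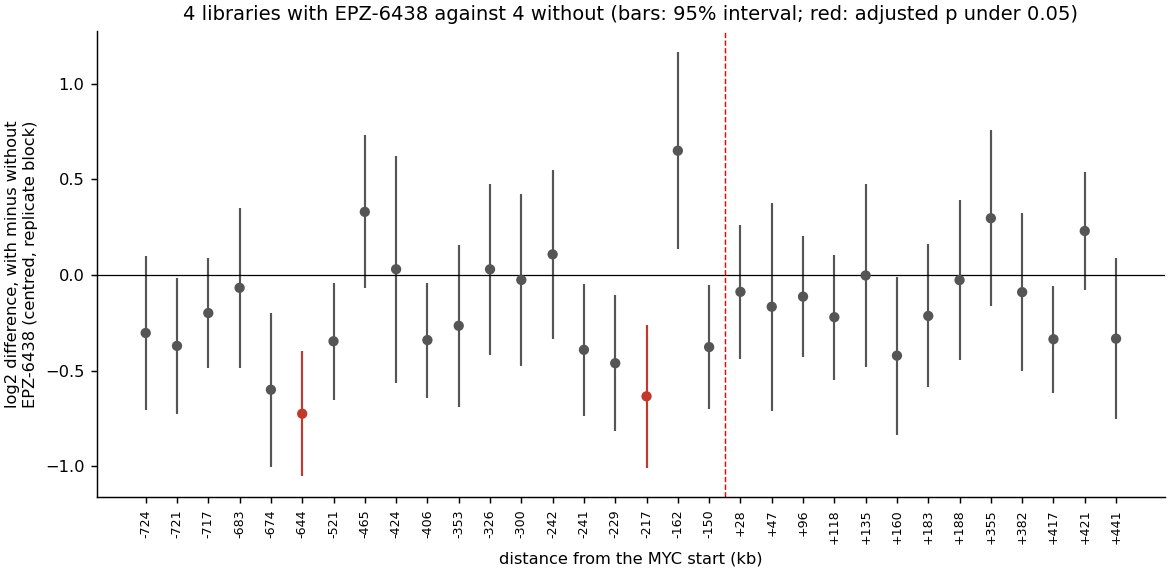
Log2 difference between the 4 libraries with EPZ-6438 and the 4 without at each of the 32 sites (centred values, replicate number in the fit), ordered by distance from the MYC start in kb, with 95% intervals as bars. The sites 644 and 217 kb upstream (red, adjusted p of 0.00298 and 0.0252) are the 2 called, and the site 162 kb upstream has the highest value.

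Few sites of the region appeared or disappeared with treatment. Counting a site as gained when both treated libraries and neither DMSO library called it, and as lost in the opposite case, EPZ-6438 gained 4 (4.14% of all FOXA1 sites gained) and lost 3 (3.03%) of the 120. One of the gained sites was that 1.98 kb upstream of MYC. P5091 gained 1 (2.03%) and lost 2 (2.25%), and the combination gained 1 (0.599%) and lost 6 (5.68%). Read against 120 sites, these are 3.33%, 2.5%, 0.833%, 1.67%, 0.833% and 5% in the same order. With combination replicate 2 alone, 12 of 120 sites were gained (13.1% of all FOXA1 sites) and 7 lost (6.05%). The gained and lost sites had tag counts of 6.64 to 39.8 in the FOXA1 libraries that called them.

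The sum of regional tags as a share of all peak tags was 0.146% and 0.127% under DMSO, 0.122% and 0.112% under EPZ-6438, 0.153% and 0.118% under P5091, and 0.145% and 0.110% under both agents. Replicate 1 was above replicate 2 in every group. Within each replicate number the EPZ-6438 value was below that of DMSO, and P5091 replicate 1 was above it.

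Tagged FOXA1 bound the same region. The list with WT held 75 peaks here and the list with K295A 65, while neither pGIPZ (982 peaks in all) nor shFoxA1 (971) had one. For these lists a count of 0 allows a share of up to 0.305% and 0.309% of their peaks, and the WT share, 0.0772%, is below both limits, so these small lists do not show a difference in share. Of the 32 sites called in all 8 FOXA1 libraries, 29 (90.6%) had peaks with both tagged proteins, compared with 87.2% over the series. Of the 34 sites called in a single FOXA1 library, 5 (14.7%) had an HA peak, beside 19.8% over the series.

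Tag counts with K295A and WT were close at the 60 sites called with both. The median log2 ratio of K295A to WT was -0.09, the same as over all 67719 shared sites. K295A was lower at 35 sites (58.3%, beside 58.8% of all shared sites) and higher at 25. Upstream the median was 0.07 over 34 sites and downstream -0.18 over 25. With 1 library per condition there is no replicate check, and the intervals that follow are 95% intervals for counting error only. The interval of the ratio left out 1 at 4 of 60 sites (6.67%), compared with 8.66% of all shared sites.

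The highest ratio was 382 kb downstream (chr8:129129806-129130197), with 13.7 for WT and 33.9 for K295A, a ratio of 2.47 (1.43 to 4.27). It was the only site of the region at least 2-fold apart (1.67% of 60, beside 3.23% of all shared sites). The FOXA1 antibody gave 15 to 44.6 at that site in its 8 libraries. The lowest ratio was 409 kb upstream (chr8:128338743-128339085), with 28.2 for WT and 15.1 for K295A, a ratio of 0.535 (0.311 to 0.923), at a site no FOXA1 library called. WT alone had peaks at 15 sites and K295A alone at 5. Over all sites these counts were 28859 and 13330, and the WT list was the longer one (97120 peaks against 81607).

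**Figure D5:**
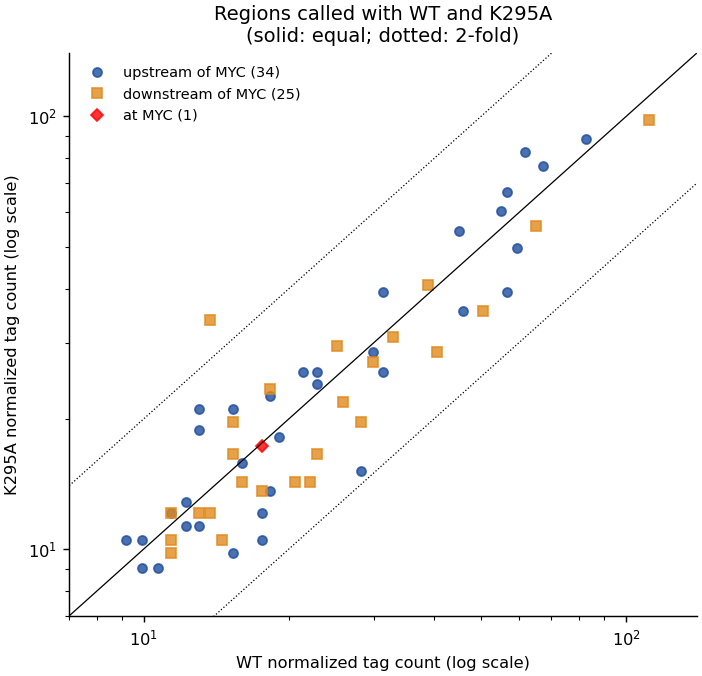
Normalized tag counts of the 60 sites called with both tagged proteins, WT on the x axis and K295A on the y axis (both log scales), with 1 library each. The strongest site has 111.4 and 97.9, and 1 site, with 13.7 and 33.9, lies outside the dotted 2-fold lines.

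At the strongest site, 417 kb downstream, the tagged proteins gave 111.4 (WT) and 97.9 (K295A), the highest HA values of the region. The mean of both HA libraries was set beside the mean of the DMSO libraries, although the antibodies differ. This was done only at the 29 sites called in all 8 FOXA1 libraries and with both tagged proteins. Sites that some FOXA1 library missed were left out, also where both DMSO libraries called them. The median log2 ratio was -0.97, compared with -0.64 over all such sites, and tagged protein was higher at 2 of 29 sites (6.90%, beside 17.3% over all), 724 and 217 kb upstream. At the latter site WT gave 67.2 and K295A 76.8. The sites 27.6 and 95.7 kb downstream of MYC were among those with the lowest ratios, -1.69 and -1.82. The former gave 18.3 with WT and 23.4 with K295A, and the latter 29.8 and 27.1.

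Of the 80 sites with an HA peak, 19 had none with the FOXA1 antibody (23.8%, compared with 33.7% over the series), and 10 of them were called with both tagged proteins. The strongest lay 305 kb downstream (chr8:129052860-129053272), with 40.5 for WT and 28.6 for K295A. Unlike the FOXA1 lists, the HA lists were called without an input library, so a site that also stands out in input is not removed from them, and how much this adds was not tested.

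Outside the region, 3 sites called in all 8 libraries had the centred profile most like the mean of the 32. They were chr7:105457347-105457769, chr1:64039048-64039458 and chr11:59554414-59554845, with Pearson correlations of 0.998, 0.989 and 0.989 over the 8 libraries. These were picked as the highest over all sites called in the 8 libraries and share libraries with the region, so the correlations describe likeness alone.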

How the data were processed

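Each library has 1 peak list. The submitters' processing notes name Bowtie2, HOMER 4.2 and the build hg19. Per the file headers, HOMER findPeaks called peaks in each library separately (factor style, false discovery rate 0.001, at least 4-fold over a local 10 kb window), and the FOXA1 lists were also filtered at 4-fold over an input. The deposited normalized tag count is a signal value, tags per 10000000 library tags. The deposited findPeaks score served a stricter threshold, and the deposited fold over the local window is the peak caller's ratio. The deposited total tag count of 3 libraries is a whole-number count.

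Peaks of all 12 lists were merged genome-wide, and a library's highest peak gave its value. Limma 3.58.1 (R 4.3.3) was fitted with a trend to log2 (value + 1), centred on each library's median, at the 24261 sites called in all 8 FOXA1 libraries, with Benjamini-Hochberg adjustment over all of them at 0.05. Differences on this scale understate changes at weak sites. Intervals of K295A to WT ratios used tags recovered from the normalized values. EdgeR 4.0.16 (quasi-likelihood) on such recovered tags was an alternative only: the values are printed rounded, and the recovered tags equalled the deposited count at 97.3%, 100% and 100% of peaks in the 3 libraries that give it.

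Replicate numbers come from the titles. Over the 24261 sites, deviations from group means correlated between groups at 0.148 to 0.488 (6 correlations, all above 0.1), and the headers give fragments of 274 to 278 bases for the first replicates and 216 to 230 for the others. The correlations that involve the combination were the lowest, at 0.148 to 0.224. Nothing in the labels tells if replicates were grown apart, and p-values then reflect the spread among these libraries alone, which may be technical. Tested on simulated data with 100 sites changed 2-fold and 100 changed 4-fold, the limma fit without replicate numbers found 1 and 42 for EPZ-6438 against DMSO; comparing every EPZ-6438 library with the rest it found 23 and 88, with 6 false calls.

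Named sites were the 5 strongest on each side, those nearest to and within 10 kb of MYC, the farthest, those called or with the smallest p in a contrast, and the extremes of K295A to WT. The sites, lists and rules were chosen with earlier results of these data known. Alternatives were other scalings, a pseudocount of 5, sites called in at least 4 libraries, stricter scores (20 for FOXA1 and 17 for HA), merging by centres within 100 bases, edgeR, the replicate number as a block and leaving out each library.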

Additional observations from a re-analysis of the deposited data

How the results depend on the processing

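The calls in the region depended on the replicate block. The planned fit without it called 0 of 32 sites in all 6 comparisons, and the pairing of libraries by number gave 2 for the combination (1025 over all sites) and 2 for all libraries with EPZ-6438 (1834 over all sites, against 38 without the block). The block changed no other count from 0 in the region. It raised the calls over all sites for EPZ-6438 alone from 0 to 167. With edgeR, TMM and the block, 2 and 3 sites were called (782 and 1917 over all sites). Leaving out single libraries from the unblocked fit gave 0 to 1 call for all with EPZ-6438 (1 without P5091 replicate 2). Leaving them out of the blocked and centred fit, chosen after seeing the data, gave 0 to 4 for the combination and 0 to 5 for all with EPZ-6438, the highest without combination replicate 2. Without centring, with or without the block, 0 sites were called, and combination differences were negative at 31 of 32 sites and 91.9% of all sites, against 23 and 50.9% with centring; the median of all sites shifted to -0.69. Stricter scores left 83 sites and moved the mean regional share of peak tags from 0.129% to 0.147%. They gave 1 gained and 1 lost site with EPZ-6438, 0 lost with P5091, and 0 gained and 10 lost with the combination. The shares gained and lost over all sites at these scores were not analysed here. Without combination replicate 1, 12 sites were gained with the combination. The cause was not tested. Of 198 recomputed values, 172 kept their call or stayed within a set margin and 26 did not. Many of the 172 are counts of 0 calls that stayed at 0, also in comparisons without calls over all sites. The tally therefore says little about stability. The number of libraries and tags per peak limits single sites to changes larger than the intervals given.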
